A study of Homo sapiens with 6 samples.

Results

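The genes described here encode the proteins of the mitochondrial ribosome. They are the rows of the deposited expression table whose symbol is MRPS or MRPL followed by a number and at most 1 letter, 76 of 18780 rows in all. By symbol, 29 belong to the small subunit (MRPS) and 47 to the large subunit (MRPL). The symbol alone decided which rows belong, but this family was chosen with earlier results of these data known. Their messenger RNA was measured by RNA sequencing in PC-3, an established line of human prostate cancer cells. Cells were given trans-Gnetin H (TGH), a resveratrol trimer, at 2.5 µM for 24 h (3 libraries), or dimethyl sulfoxide (DMSO), the solvent, as the control (3 libraries). The study's title places the compound in pharmacological glucose deprivation of advanced prostate cancer. Nothing in the labels says that the replicates came from separate cultures, so the p-values measure the spread between these libraries, which may be technical.

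Values were deposited as log2(TPM + 1), where TPM is transcript abundance scaled by transcript length and library total, and keeps no read number. Depth is therefore unknown. Between 1342 and 1498 genes were listed at 0 in the TGH libraries, and 1530 to 3185 in the DMSO libraries, with the highest numbers in DMSO replicates 1 and 2. None of the 76 genes was listed at 0 in any library, and all 76 passed the filter of a mean of at least 1 TPM that 12018 genes passed. Epithelial markers were abundant, with KRT8 at 424 ± 1.9 TPM in TGH and 604 ± 14 TPM in DMSO libraries (SD, n = 3 each). Summed over 5 immune markers the level was 0.401 to 0.501 TPM in TGH and 0.189 to 0.441 TPM in DMSO libraries, and over 4 endothelial markers 0.447 to 0.598 TPM and 0.322 to 0.389 TPM. Over 5 fibroblast markers it was 3.28 to 3.78 TPM in TGH and 3.66 to 4.78 TPM in DMSO libraries. Over the 5 epithelial markers it was 1487 to 1503 TPM in TGH and 1815 to 1900 TPM in DMSO libraries, with 3 of 5 lower. The part of these shifts in the results was not tested.

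Mitochondria translate the few proteins that their own genome encodes, all of them parts of the respiratory chain, the ATP synthase counted in. They do so on a ribosome whose RNA is mitochondrial but whose proteins are all made from nuclear genes and imported. The small subunit binds the messenger and reads the codons. The large subunit holds the peptidyl transferase centre, the exit tunnel and the stalk that recruits translation factors. Part of these proteins have bacterial relatives, while others exist only in mitochondria. Cells need this ribosome to keep up respiration.

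In cells given TGH, large-subunit genes were called lower more often than higher, and few small-subunit genes were called lower. Of 47 large-subunit genes 23 fell, 6 rose and 18 were not called (limma with Benjamini-Hochberg adjustment over 12018 genes, adjusted p under 0.05). Of 29 small-subunit genes 3 fell, 6 rose and 20 were not called. Over all genes tested 26.3% were called lower and 28.9% higher, or 55.2% in either direction. A share of 48.9% of large-subunit genes was thus called lower and 12.8% higher, against 10.3% lower and 20.7% higher in the small subunit. The difference between TGH and DMSO on the log2(TPM + 1) scale, which slightly understates changes of low genes, had a median of -0.09 over the large subunit, 0.01 over the small subunit and 0.02 over all genes tested. The small-subunit median lies close to 0 and changes sign with the setting, at -0.020 after median scaling and -0.0095 against DMSO replicate 3 alone. The difference between the subunits was not given a p-value, since genes are not replicates. In bulk RNA, fewer cells with a transcript and less of it per cell cannot be told apart.

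All these differences were small. The largest was -0.42 on the log2(TPM + 1) scale, a 1.34-fold lower TPM + 1, and 64 of the 76 genes differed by less than 0.25. The TGH and DMSO libraries did not overlap in 48 of 76 genes, while 64.4% of all genes tested had groups that did not overlap. All 3 TGH libraries lay below all 3 DMSO libraries for 24 large-subunit and 6 small-subunit genes, and above them for 9 of each subunit. Among all genes tested, 30.8% had all TGH libraries below and 33.6% had them above.

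How many genes were called in each direction depended on the scaling. After quantile normalization 19 large-subunit genes were lower and 9 higher, and 2 small-subunit genes were lower and 8 higher, with 30.3% of all genes tested lower and 24.7% higher. After scaling each library to its median, the counts were 24 lower and 5 higher in the large subunit, and 8 lower and 5 higher in the small subunit, with 30.2% of all genes tested lower and 25.6% higher. Against DMSO replicate 3 as the only control, where the spread comes from the TGH libraries alone, 20 large-subunit genes were lower and 5 higher, and 3 small-subunit genes were lower and 6 higher. Over all genes 22.9% were lower and 25.6% higher in that comparison. Each of the 38 genes called with all controls had the same sign there, but no other outcome was possible. The TGH and DMSO libraries of these 38 genes did not overlap, so every TGH library already lay on the same side of DMSO replicate 3.

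**Figure D1:**
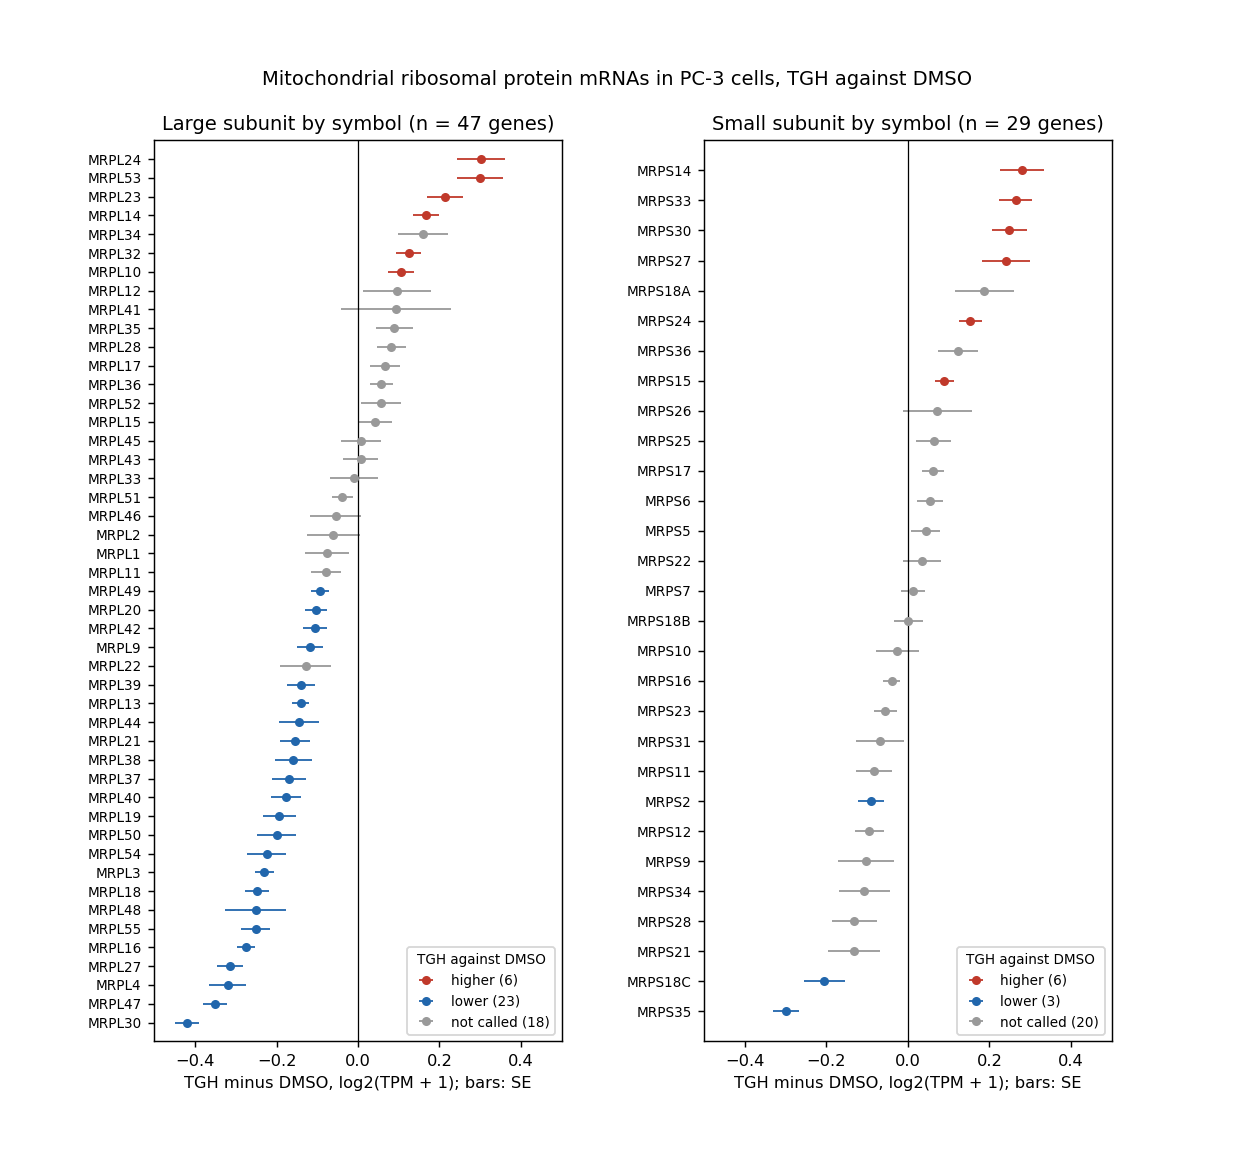
Difference between TGH and DMSO on the log2(TPM + 1) scale for each of 76 mitochondrial ribosomal protein genes, with its standard error from 3 libraries per group; colour shows the call at an adjusted p under 0.05. In the large subunit 23 of 47 genes are called lower, from MRPL30 at -0.42 upward, while in the small subunit 3 of 29 are.

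The largest falls of the large subunit were those of MRPL30, MRPL47, MRPL4, MRPL27, MRPL16 and MRPL55. MRPL30, a relative of a bacterial large-subunit protein, had 15.3, 15.5 and 15.4 TPM in TGH replicates 1 to 3, against 21.0, 21.3 and 20.6 TPM in DMSO replicates 1 to 3. The groups were far apart relative to their spread, and the TPM + 1 of MRPL30 was 1.34-fold lower (difference -0.42, SE 0.029, adjusted p = 5.8e-05). MRPL47, whose bacterial relative lies at the exit of the peptide tunnel, had 52.8, 50.0 and 50.0 TPM with TGH and 65.9, 65.6 and 64.3 TPM with DMSO. No TGH library came near a DMSO library, and the difference was -0.35 (SE 0.030, adjusted p = 0.00013).

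MRPL4, also a protein with a bacterial relative, was at 118, 130 and 124 TPM in TGH and 147, 156 and 161 TPM in DMSO libraries. Its libraries spread more within each group but did not overlap, with a difference of -0.32 (SE 0.046, adjusted p = 0.0013). MRPL27, whose bacterial relative reaches toward the peptidyl transferase centre, was at 116, 115 and 116 TPM in TGH and 146, 150 and 138 TPM in DMSO libraries (difference -0.31, SE 0.032, adjusted p = 0.00028). MRPL16, which belongs to the same bacterial-type core, was at 56.9, 57.8 and 57.8 TPM in TGH and 69.3, 69.7 and 70.4 TPM in DMSO libraries. It had the smallest standard error of these 6 genes, 0.022, around a difference of -0.28 (adjusted p = 9.5e-05). MRPL55, a protein with no bacterial relative, had 84.8, 80.9 and 85.3 TPM with TGH and 103, 100 and 96.0 TPM with DMSO (difference -0.25, adjusted p = 0.0011).

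The other 17 large-subunit genes called lower had differences between -0.09 and -0.25. Among them MRPL18, a protein of the central protuberance, had -0.25 (SE 0.029) and MRPL3, a bacterial-type core protein, had -0.23 (SE 0.023). Calls of some genes in this range depended on single settings, and 14 of the 26 genes called lower over both subunits kept their call under every alternative run. The sign changed in none of the 26, though with groups that did not overlap only median scaling or quantile normalization could have changed it.

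Against this, 6 large-subunit genes rose. MRPL24 was at 134, 132 and 124 TPM in TGH and 114, 98.3 and 104 TPM in DMSO libraries, a difference of 0.30 (SE 0.059, adjusted p = 0.0049). MRPL53, a mitochondria-specific protein, was at 63.8, 63.3 and 66.8 TPM in TGH and 57.2, 50.0 and 50.0 TPM in DMSO libraries (difference 0.30, SE 0.057, adjusted p = 0.0042). For both genes DMSO replicate 1 was the highest control and still lay below each TGH library. MRPL23, at the exit of the peptide tunnel, averaged 90.4 ± 3.06 TPM in TGH and 77.8 ± 3.96 TPM in DMSO libraries (SD, n = 3 each; difference 0.21, adjusted p = 0.0060). MRPL14, which faces the small subunit, averaged 176 ± 3.98 TPM with TGH and 157 ± 5.7 TPM with DMSO (difference 0.17, adjusted p = 0.0046).

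MRPL32, a zinc-binding protein that is cut by a mitochondrial protease before assembly, averaged 97.4 ± 0.708 TPM in TGH and 89.3 ± 3.39 TPM in DMSO libraries (SD, n = 3 each; difference 0.12, adjusted p = 0.014). This call was lost against DMSO replicate 3 alone (adjusted p = 0.073). MRPL10 is the base of the stalk and MRPL12 the stalk protein that it holds, present in several copies per ribosome. MRPL10 averaged 42.2 ± 1.03 TPM in TGH and 39.2 ± 1.04 TPM in DMSO libraries (difference 0.10, adjusted p = 0.030), a call lost under 7 of 16 alternatives, among them without DMSO replicate 2 or 3 and without TGH replicate 2 or 3, with an adjusted p between 0.0094 and 0.11 over all of them. MRPL12 was not called: it had 204, 198 and 197 TPM with TGH and 163, 192 and 208 TPM with DMSO. DMSO replicate 3 lay above all TGH libraries and the other controls below them. Without DMSO replicate 1 the difference of 0.10 (adjusted p = 0.36) was -0.0027 (adjusted p = 0.96).

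**Figure D2:**
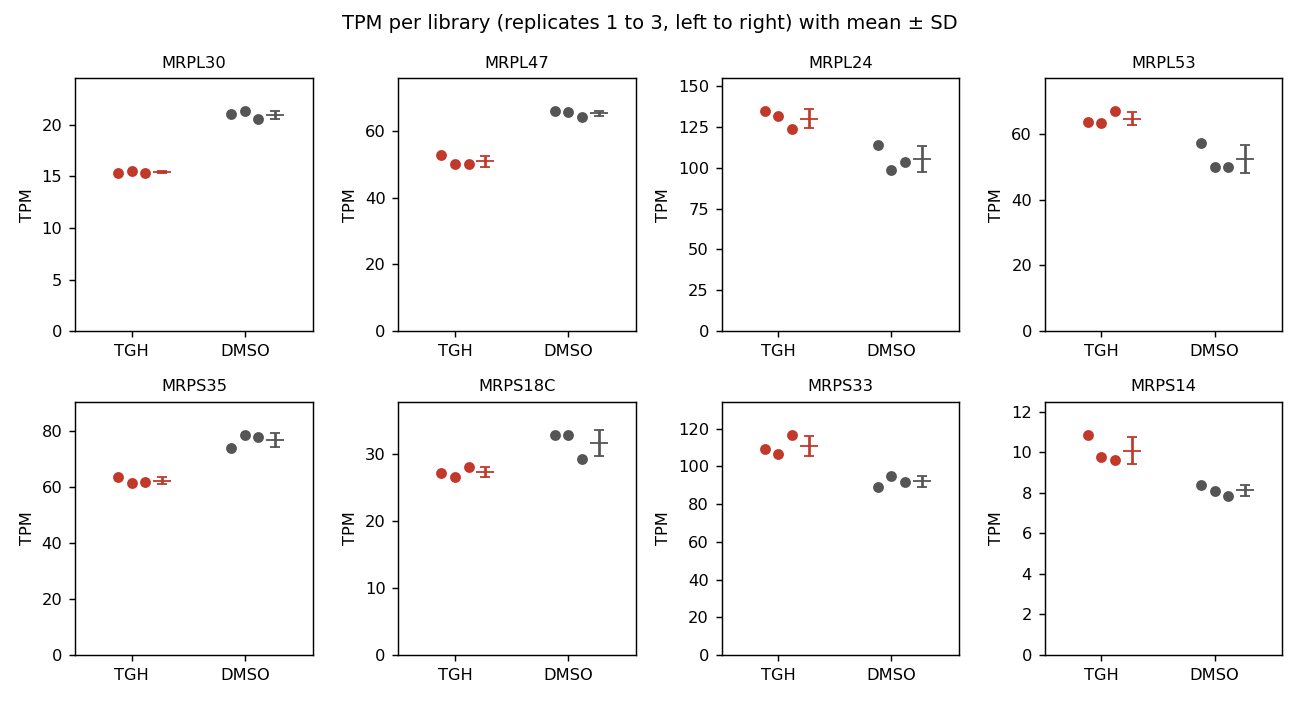
TPM of 8 mitochondrial ribosomal protein genes in each library, with TGH at the left and DMSO at the right of each panel, and the mean ± SD of 3 libraries beside the points. MRPL30, MRPL47, MRPS35 and MRPS18C lie lower in TGH than in DMSO libraries, and MRPL24, MRPL53, MRPS33 and MRPS14 lie higher, with no overlap in any panel.

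In the small subunit, MRPS14, MRPS33, MRPS30, MRPS27, MRPS24 and MRPS15 rose. MRPS14, a bacterial-type protein, was at 10.8, 9.75 and 9.63 TPM in TGH and 8.40, 8.10 and 7.83 TPM in DMSO libraries, the largest rise of this subunit at 0.28 (SE 0.054, adjusted p = 0.0046). MRPS33, found only in mitochondria, was at 109, 107 and 117 TPM in TGH and 89.2, 95.1 and 91.8 TPM in DMSO libraries (difference 0.26, SE 0.040, adjusted p = 0.0017). Neither gene's groups overlapped. MRPS27, an RNA-binding protein of the pentatricopeptide repeat type, was at 28.5, 27.1 and 30.1 TPM in TGH and 25.6, 22.4 and 24.1 TPM in DMSO libraries (difference 0.24, SE 0.058, adjusted p = 0.012).

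MRPS24, which lines the channel by which the messenger enters, averaged 318 ± 2.12 TPM in TGH and 286 ± 10.9 TPM in DMSO libraries (SD, n = 3 each; difference 0.15, adjusted p = 0.0041). MRPS15, which binds the small ribosomal RNA, averaged 136 ± 2.18 TPM in TGH and 128 ± 2.43 TPM in DMSO libraries (difference 0.09, adjusted p = 0.016). The call of MRPS15 was lost against DMSO replicate 3 alone, after median scaling, with variances fitted without a trend and without TGH replicate 1, over which settings and all others its adjusted p ranged between 0.0057 and 0.15.

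The small-subunit genes that fell were MRPS35, MRPS18C and MRPS2. MRPS35, a mitochondria-specific protein, had 63.6, 61.3 and 61.7 TPM with TGH and 73.8, 78.6 and 77.9 TPM with DMSO. The groups were well apart (difference -0.30, SE 0.032, adjusted p = 0.00035), and it was the only one of the 3 called under each alternative. MRPS18C was at 27.2, 26.7 and 28.1 TPM in TGH and 32.9, 32.9 and 29.4 TPM in DMSO libraries (difference -0.21, SE 0.050, adjusted p = 0.012), with an adjusted p of 0.11 against DMSO replicate 3 alone. MRPS2, which is near the messenger exit in the bacterial ribosome, averaged 44.9 ± 1.54 TPM in TGH and 47.9 ± 0.69 TPM in DMSO libraries (SD, n = 3 each; difference -0.09, adjusted p = 0.049). Its call was lost under 11 of 16 alternatives, among them without each single library other than TGH replicate 2, with an adjusted p between 0.019 and 0.17.

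Humans have 3 proteins related to the same bacterial small-subunit protein. MRPS18C sits in the bacterial position, MRPS18B elsewhere in the small subunit, and MRPS18A, despite its symbol, in the large subunit. Their transcripts differed: MRPS18C fell, MRPS18B had 65.7, 63.8 and 65.7 TPM with TGH and 62.0, 67.1 and 66.0 TPM with DMSO (difference 0.00094, SE 0.035, adjusted p = 0.98), and MRPS18A had 51.1, 52.6 and 49.6 TPM with TGH and 39.8, 48.9 and 46.0 TPM with DMSO. MRPS18A's groups did not overlap, but it was not called (difference 0.19, SE 0.073, adjusted p = 0.065), with controls that spread more than its TGH libraries. It was called without DMSO replicate 2, against DMSO replicate 3 alone and after quantile normalization.

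MRPS30 also belongs to the large subunit in structures of the ribosome. It was at 52.4, 47.1 and 51.3 TPM in TGH and 41.4, 42.1 and 42.8 TPM in DMSO libraries, with no overlap (difference 0.25, SE 0.043, adjusted p = 0.0029). MRPS36 is now known as a part of the oxoglutarate dehydrogenase complex and not of the ribosome. It was at 14.5, 14.3 and 15.7 TPM in TGH and 13.3, 13.1 and 14.2 TPM in DMSO libraries (difference 0.12, SE 0.049, adjusted p = 0.071). MRPS36 was called without DMSO replicate 3 and with the replicate number as a block. With subunits assigned by structure, 23 of 49 large-subunit genes were lower and 7 higher, and 3 of 26 small-subunit genes were lower and 5 higher. The median differences were then -0.08 and -0.01.

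Ribosome structures give each protein a name of the bacterial type or a name as mitochondria-specific, and genes of both kinds were called in both directions in each subunit. MRPS18A and MRPS18B carry mitochondria-specific names and are counted so here, despite their bacterial relative. Neither was called. Among large-subunit genes in structures, 12 of 29 with a bacterial-type name were lower and 5 higher, and 11 of 20 mitochondria-specific ones were lower and 2 higher. In the small subunit 2 of 16 genes with a bacterial-type name were lower and 3 higher, and 1 of 10 mitochondria-specific ones was lower and 2 higher. These shares were not tested against each other.

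Summed over the 47 large-subunit genes, the level was 3584, 3557 and 3575 TPM in TGH replicates 1 to 3, against 3680, 3709 and 3764 TPM in DMSO replicates 1 to 3. Each TGH library was below each DMSO library. Over the 29 small-subunit genes the sums were 2164, 2120 and 2164 TPM with TGH and 2089, 2121 and 2147 TPM with DMSO, which overlapped. Together these transcripts made up 1.11% to 1.12% of the listed TPM in TGH libraries and 1.13% to 1.16% in DMSO libraries. The ratio of summed small to summed large levels was 0.604, 0.596 and 0.605 with TGH and 0.568, 0.572 and 0.570 with DMSO. Taken as mean log2(TPM + 1) levels, the small minus the large subunit was -0.01, -0.04 and -0.02 in TGH and -0.12, -0.10 and -0.11 in DMSO libraries, without overlap. With subunits assigned by structure the same quantity was 0.08, 0.05 and 0.06 in TGH and 0.02, 0.01 and 0.00 in DMSO libraries, again without overlap. These sums and means are descriptions, and carry no test.

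**Figure D3:**
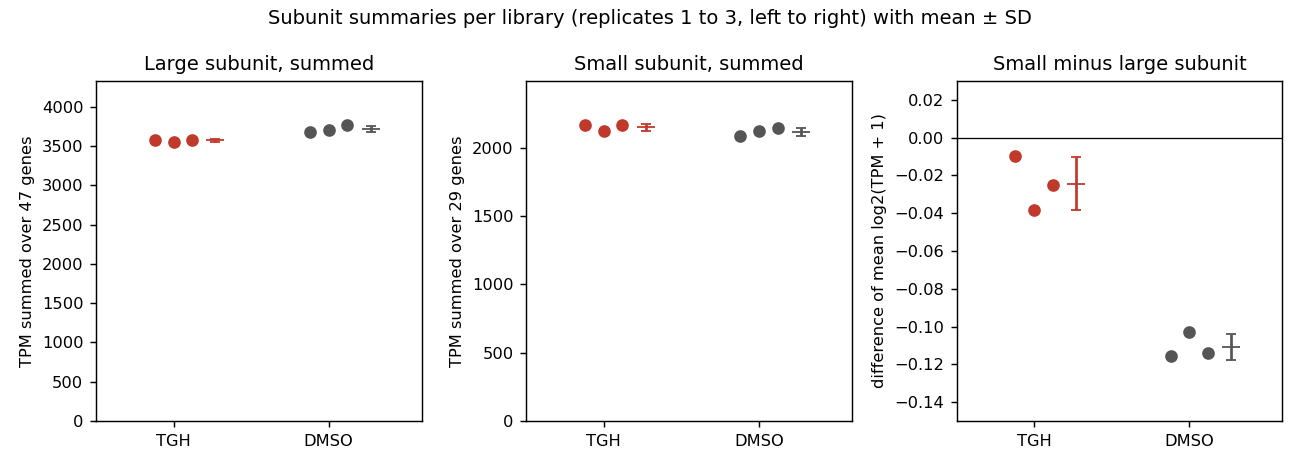
Summed TPM of the large-subunit genes and of the small-subunit genes, and the small minus the large subunit's mean log2(TPM + 1), in each library, with TGH at the left, DMSO at the right and the mean ± SD of 3 libraries beside the points. The TGH libraries lie below the DMSO libraries for the large subunit, overlap with them for the small subunit, and lie above them in the difference.

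The proteins of a ribosome are mostly present once each, but their transcripts covered a wide range. Mean levels over the 6 libraries ran from 8.25 TPM for MRPL22 to 302 TPM for MRPS24, a 36.7-fold range on the length-scaled TPM, with a median of 66.0 TPM. After MRPS24, the most abundant were MRPL20 at 215 ± 2.71 TPM in TGH and 232 ± 7.71 TPM in DMSO libraries (SD, n = 3 each), MRPL33 at 217 ± 6.03 TPM in TGH and 219 ± 18.3 TPM in DMSO libraries, and MRPL12. Within the TGH libraries the levels of MRPL20 and MRPL33, both bacterial-type proteins, did not differ from each other beyond their spread. MRPL20 was called lower (difference -0.10, adjusted p = 0.017), a call lost without TGH replicate 1 or 3, after quantile normalization and against DMSO replicate 3 alone, with an adjusted p between 0.0064 and 0.21 over all alternatives, while MRPL33 was not (difference -0.01, adjusted p = 0.91). MRPS21, another abundant transcript, had 140, 132 and 137 TPM with TGH and 164, 148 and 137 TPM with DMSO, and overlapped (difference -0.13, adjusted p = 0.12, called without DMSO replicate 3).

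At the low end, MRPL22 was at 7.44, 7.72 and 8.35 TPM in TGH and 9.27, 8.05 and 8.66 TPM in DMSO libraries (difference -0.13, adjusted p = 0.12). MRPS14, described above, followed it, and MRPL19, a bacterial-type protein, came next at 11.9, 11.2 and 11.3 TPM in TGH and 13.8, 13.0 and 13.0 TPM in DMSO libraries (difference -0.19, SE 0.041, adjusted p = 0.0073), a call lost against DMSO replicate 3 alone (adjusted p = 0.0504). The groups of MRPL22 overlapped and those of MRPL19 did not. Pseudogenes are common in this family: RefSeq names 98 pseudogenes of 41 of the 76 genes, 18 of the 38 called genes included, for example 2 of MRPL30, 1 of MRPL53, 4 of MRPS33, 3 of MRPS35 and 6 of MRPS18C. Reads of such genes may be shared with these copies, and how the authors assigned them is not given in the sources used here.

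Other ribosomal and respiratory genes give a frame, beside 28.9% higher and 26.3% lower over all genes tested. Of 78 cytosolic ribosomal protein genes tested, 56 were higher, 3 lower and 19 not called, with a median difference of 0.11. Of 76 nuclear-encoded respiratory chain genes tested, 30 were higher, 13 lower and 33 not called, with a median of 0.03. The mitochondrial ribosomal genes had 12 higher, 26 lower and 38 not called, with a median of -0.06. No test of the difference between these sets was made.

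Further proteins sit in the mitochondrial ribosome under other names. Of 7 measured, 2 were higher, 1 lower and 4 not called, beside 28.9% higher and 26.3% lower over all genes tested. ICT1, a peptidyl-tRNA hydrolase built into the large subunit, averaged 114 ± 0.68 TPM in TGH and 104 ± 0.69 TPM in DMSO libraries (SD, n = 3 each; difference 0.12, adjusted p = 0.0016), and MRP63, another large-subunit protein, rose by 0.13 (adjusted p = 0.013). PTCD3, a small-subunit protein that binds RNA, fell by 0.14 (adjusted p = 0.012). DAP3, a GTP-binding small-subunit protein, was not called (difference 0.06, adjusted p = 0.24), although it was against DMSO replicate 3 alone.

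Assembly factors and enzymes that modify mitochondrial ribosomal RNA had 3 higher, 7 lower and 15 not called of 25 measured. The share called lower, 28%, was near the 26.3% over all genes tested, and 12% were higher, against 28.9%. MTG1, a GTPase that acts late in large-subunit assembly, averaged 22.9 ± 1.6 TPM in TGH and 14.0 ± 1.2 TPM in DMSO libraries (SD, n = 3 each), a rise of 0.67 (SE 0.072, adjusted p = 0.00037), larger than that of any of the 76 ribosomal protein genes. MPV17L2, a membrane protein that binds the large subunit, rose by 0.26 and METTL17, a methyltransferase-like protein of small-subunit assembly, by 0.17, a call lost against DMSO replicate 3 alone. WBSCR16, an assembly factor of the large subunit, fell by 0.26, DHX30, an RNA helicase, by 0.22, and FTSJ2, which methylates the large ribosomal RNA, by 0.22, with an adjusted p of at most 0.0015 each.

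Translation factors and their partners had 3 higher, 5 lower and 8 not called of 16. These are 19% higher and 31% lower, against 28.9% and 26.3% over all genes tested. OXA1L, the membrane insertase at which the ribosome docks, averaged 62.5 ± 1.3 TPM in TGH and 47.1 ± 2.9 TPM in DMSO libraries (SD, n = 3 each), a rise of 0.40 (SE 0.047, adjusted p = 0.00055). GFM2 and MRRF, which recycle ribosomes after termination, rose by 0.19 (adjusted p = 0.0049) and 0.16 (adjusted p = 0.0071). MTRF1L, the release factor, fell by 0.29 (adjusted p = 0.0033), SLIRP, which stabilises mitochondrial messengers, by 0.25 (adjusted p = 0.00088), and TUFM, the elongation factor that delivers aminoacyl-tRNA, by 0.11 (adjusted p = 0.0040). LRPPRC, the partner of SLIRP, was not called (difference 0.02, adjusted p = 0.65).

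Of 20 mitochondrial tRNA synthetases and amidotransferase subunits, 1 was higher, 6 were lower and 13 not called. The share called lower, 30%, was near the 26.3% over all genes tested, and 5% were higher, against 28.9%. EARS2, for glutamate, rose by 0.29 (adjusted p = 0.0014), while TARS2, for threonine, fell by 0.29 and LARS2, for leucine, by 0.27. Mitochondrial transcription and RNA processing had 0 higher, 7 lower and 5 not called of 12, or 58.3% lower. TFAM, which packs mitochondrial DNA and starts its transcription, averaged 20.8 ± 0.7 TPM in TGH and 29.8 ± 0.89 TPM in DMSO libraries (SD, n = 3 each), a fall by 0.49 (SE 0.037, adjusted p = 8.0e-05). HSD17B10, a subunit of the enzyme that trims tRNA ends, fell by 0.33, and so did TFB2M, a transcription initiation factor, by 0.33.

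Regulators of nuclear genes for mitochondria had 0 higher, 6 lower and 2 not called of 8 tested. Thus 75% were lower, beside 26.3% lower and 28.9% higher over all genes tested. PPARGC1A was listed at 0 in 5 of 6 libraries. NRF1, a factor that binds many promoters of mitochondrial genes, averaged 5.38 ± 0.025 TPM in TGH and 6.57 ± 0.38 TPM in DMSO libraries (SD, n = 3 each), a fall by 0.25 (adjusted p = 0.0054). GABPA, an ETS-family factor with the same kind of targets, averaged 9.39 ± 0.16 TPM in TGH and 10.7 ± 0.18 TPM in DMSO libraries, a fall by 0.17 (adjusted p = 0.0059). YY1, a zinc finger factor, fell by 0.16 (adjusted p = 0.013), a call lost against DMSO replicate 3 alone (adjusted p = 0.063) and without TGH replicate 3 (adjusted p = 0.050). MYC, a driver of growth genes, fell by 0.18 (adjusted p = 0.0019).

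Promoters of the ribosomal protein genes were read from RefSeq on GRCh38.p14, as windows of 300 bases that run from 250 bases before to 50 after a start. Windows were found for 67 of the 76 genes, 83 windows in all. MRPL2, MRPL10, MRPL13, MRPL15, MRPL21, MRPL23, MRPL35, MRPS28 and MRPS36 were not matched. Exact letters were searched on both strands: CCGGAAG for ETS-family factors such as GABPA, AAGATGGC for YY1, GCATGCGC for NRF1 and CACGTG, the E-box. None of these words contains another, though matches may share bases. The ETS letters stood in 38.6% of the windows of these genes, in 17.6% of 13925 windows of genes tested and in 10.3% of all 35116 windows. For YY1 the shares were 27.7%, 5.01% and 2.89%, for NRF1 7.23%, 4.95% and 3.05%, and for the E-box 10.8%, 9.39% and 7.26%.

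Both subunits held the letters in both cases, with ETS in 36% of 50 large-subunit and 42.4% of 33 small-subunit windows, and YY1 in 28% and 27.3%. By call, ETS letters stood in 13 of 30 windows of genes called lower, 17 of 40 of genes not called and 2 of 13 of genes called higher. For YY1 these counts were 7, 12 and 4. The windows of MRPL30, MRPL47, MRPL27 and MRPL16 held ETS letters, and those of MRPL4 and MRPL55 did not. Among genes that rose, the windows of MRPL53 and MRPS33 held them, and those of MRPL24, MRPS14, MRPS30 and MRPS27 did not. A match of letters is a description of the sequence and shows no binding.

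Many of these genes start back to back with a neighbour on the other strand. Looking for pairs whose annotated starts diverge with at most 1000 bases between them, a search made after the values had been seen, gave 16 pairs in which both genes were tested. In 6 pairs both genes were called in opposite directions, in 1 pair both were called in the same direction, and in 9 at most 1 gene was called. By the same rule, 635 pairs of genes tested were found in all, of which 14.3% had opposite calls and 18.7% calls in the same direction. Against DMSO replicate 3 alone, 2 of the 6 pairs with opposite calls, MRPL30 with MITD1 and MRPL54 with APBA3, kept both calls, which is 12.5% of the 16 pairs, and 9.61% of the 635 pairs had opposite calls. With so few pairs these shares are a description. In the pairs with opposite calls the stretch between the starts is shared, so the bases are shown for those with at most 250 bases between the starts, and for the pair called in the same direction. Each stretch is given 5′ to 3′ on the strand of the ribosomal protein gene and ends just before its start, with the neighbour's start before its first base on the other strand. Capitals mark letters of the motifs above, ETS in the MRPL27 stretch and NRF1 in the MRPL32 and MRPS18C stretches.
MRPL30: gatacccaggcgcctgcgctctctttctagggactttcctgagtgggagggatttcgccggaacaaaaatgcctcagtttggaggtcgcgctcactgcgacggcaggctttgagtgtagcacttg
MRPL27: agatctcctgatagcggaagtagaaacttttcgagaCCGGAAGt
MRPL37: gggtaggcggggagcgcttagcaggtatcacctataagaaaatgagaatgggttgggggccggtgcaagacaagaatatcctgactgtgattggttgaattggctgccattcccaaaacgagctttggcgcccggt
MRPS18C: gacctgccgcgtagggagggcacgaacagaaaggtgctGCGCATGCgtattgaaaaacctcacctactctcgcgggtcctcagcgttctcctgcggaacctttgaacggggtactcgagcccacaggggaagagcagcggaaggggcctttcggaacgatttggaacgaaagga
MRPL32: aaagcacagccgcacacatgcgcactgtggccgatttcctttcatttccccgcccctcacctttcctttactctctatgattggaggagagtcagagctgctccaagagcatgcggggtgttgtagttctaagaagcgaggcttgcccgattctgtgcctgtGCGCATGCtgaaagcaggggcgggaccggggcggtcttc
MRPL18: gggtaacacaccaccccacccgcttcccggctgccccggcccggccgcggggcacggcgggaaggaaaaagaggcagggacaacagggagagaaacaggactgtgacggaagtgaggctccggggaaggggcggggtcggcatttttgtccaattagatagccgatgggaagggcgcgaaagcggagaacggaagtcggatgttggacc

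On GRCh38.p14 these are chr2:99181059-99181183 on the plus strand, chr17:50373185-50373228 on the minus strand, chr1:54200031-54200166, chr4:83455884-83456057, chr7:42932175-42932375 and chr6:159789603-159789811, the last 4 on the plus strand. They hold no transcribed base of either gene in that annotation. The deposited table was made on hg19, so starts in the authors' annotation may differ.

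MITD1, which acts in the last step of cell division, shares the MRPL30 stretch of 125 bases. It had 19.3, 19.8 and 17.3 TPM with TGH and 15.1, 16.6 and 15.1 TPM with DMSO, while MRPL30 had fallen to 15.4 ± 0.102 TPM in TGH against 21.0 ± 0.367 TPM in DMSO libraries (SD, n = 3 each). MITD1 rose by 0.25 (SE 0.061, adjusted p = 0.011), and MRPL30 fell by 0.42. EME1, a subunit of a DNA repair nuclease, lies 44 bases from MRPL27. It was at 8.83, 8.22 and 8.18 TPM in TGH and 7.21, 7.27 and 7.54 TPM in DMSO libraries, a rise of 0.17 (SE 0.044, adjusted p = 0.014), where MRPL27 fell by 0.31.

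CYB5RL, related to cytochrome reductases, starts 136 bases from MRPL37. It was at 3.34, 3.13 and 3.47 TPM in TGH and 2.53, 2.39 and 2.69 TPM in DMSO libraries, a rise of 0.29 (SE 0.060, adjusted p = 0.0065). MRPL37, a mitochondria-specific protein, had 124, 127 and 125 TPM with TGH and 132, 147 and 145 TPM with DMSO, a fall by 0.17 (SE 0.041, adjusted p = 0.012). HELQ, a DNA helicase 174 bases from MRPS18C, was at 2.82, 3.34 and 2.87 TPM in TGH and 2.24, 2.33 and 2.58 TPM in DMSO libraries, a rise of 0.25 (SE 0.074, adjusted p = 0.029). Against DMSO replicate 3 alone the adjusted p was 0.12 for EME1, 0.057 for CYB5RL and 0.22 for HELQ, while MITD1 was called, with an adjusted p of 0.032. EME1 also lost its call without TGH replicate 1. HELQ lost it under 8 of 16 alternatives, among them without DMSO replicate 1 or 2 and without TGH replicate 2 or 3.

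In the pair of MRPL32 the directions were the other way round. PSMA2, a subunit of the proteasome core, was at 154, 149 and 151 TPM in TGH and 176, 172 and 173 TPM in DMSO libraries, a fall by 0.20 (SE 0.021, adjusted p = 0.0003), while MRPL32 rose by 0.12. The sixth pair with opposite calls was the most widely spaced, with 989 bases, and RefSeq places the start of a further transcript, not analysed here, between them. APBA3, an adaptor protein, rose by 0.45 (SE 0.069, adjusted p = 0.0017), and MRPL54, a mitochondria-specific protein, fell by 0.22 (SE 0.048, adjusted p = 0.0072). TCP1, a subunit of the cytosolic chaperonin, is the neighbour of MRPL18, 209 bases away, and both fell. TCP1 was at 123, 124 and 121 TPM in TGH and 168, 164 and 163 TPM in DMSO libraries (difference -0.42, SE 0.022, adjusted p = 1.7e-05), and MRPL18 at 70.4, 67.0 and 68.1 TPM in TGH and 80.9, 83.6 and 80.1 TPM in DMSO libraries (difference -0.25).

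Size could differ widely within a pair even without opposite calls. NCAPD2, a condensin subunit needed in mitosis, had 23.1, 23.2 and 24.5 TPM with TGH and 50.9, 52.7 and 49.5 TPM with DMSO, a fall by 1.08 (SE 0.037, adjusted p = 4.1e-06). MRPL51, which starts 839 bases from it, had 183, 176 and 184 TPM with TGH and 190, 186 and 181 TPM with DMSO and was not called (difference -0.04, SE 0.026, adjusted p = 0.25). SARS2, the mitochondrial synthetase for serine, starts 180 bases from MRPS12, a protein of the decoding site. SARS2 fell by 0.19 (SE 0.047, adjusted p = 0.012), a call lost without TGH replicate 3. MRPS12 was not called (difference -0.10, SE 0.036, adjusted p = 0.060), although its 3 TGH libraries lay below its 3 DMSO libraries. MRPS12 was called under 5 of 16 alternatives, among them median scaling, robust variances, the replicate number as a block and without DMSO replicate 1. The library kit keeps the strand, per the labels, but whether counting used it is not given in the sources used here.

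**Figure D4:**
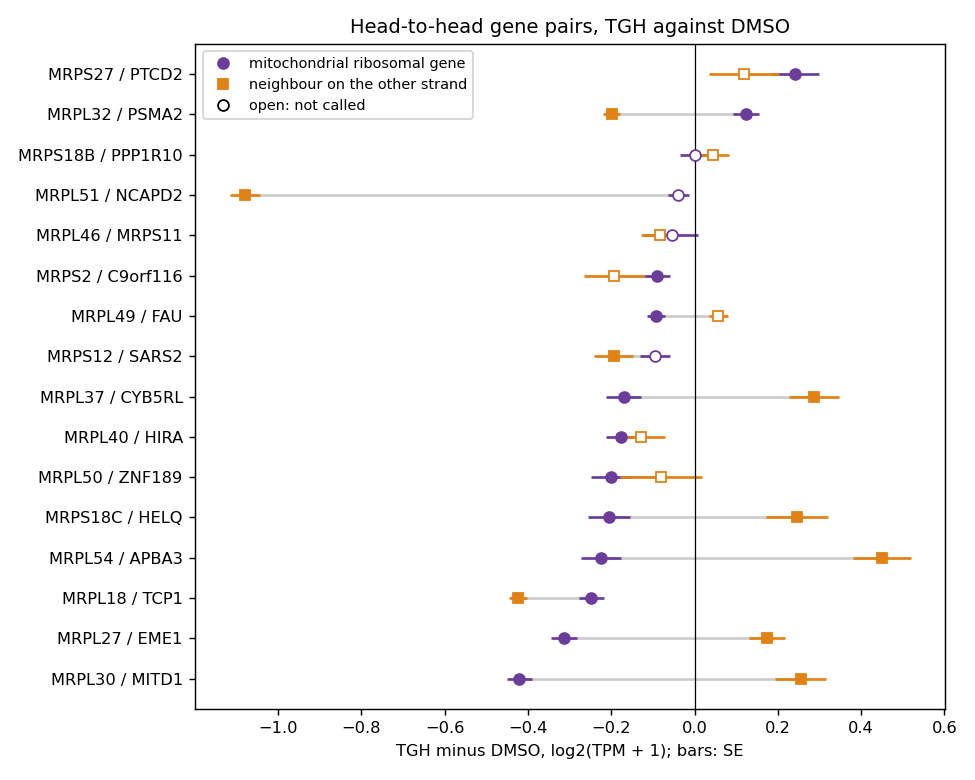
Difference between TGH and DMSO on the log2(TPM + 1) scale, with standard errors, for 16 pairs of a mitochondrial ribosomal protein gene (circle) and the gene that starts at most 1000 bases away on the other strand (square). Filled symbols are called at an adjusted p under 0.05; in 6 pairs, such as MRPL30 with MITD1, both symbols are filled and lie on opposite sides of 0. In the pair MRPL46 and MRPS11 both genes encode mitochondrial ribosomal proteins.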

How the data were processed

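RNA of 6 PC-3 libraries, 3 TGH and 3 DMSO by their titles, was analysed from 1 table that the authors deposited as log2(TPM + 1) per gene symbol. The lowest value, 0, gave the offset. hg19 is the build in the submitters' processing notes. Which aligner, quantifier, annotation and filters the authors used is not given in the sources used here, and the labels' protocols name ribosomal RNA depletion and a kit that keeps the strand.

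Genes averaging 1 TPM or more had their log2 values compared with limma 3.58.1 in R 4.3.3 (moderated variances with a trend, two-sided), with Benjamini-Hochberg adjustment over 12018 genes calling genes below an adjusted p of 0.05. The genes described, the lists and the tests were chosen with earlier results of these data known. Per subunit, up to 6 called genes in each direction with the largest differences, the 3 highest and 2 lowest levels, and 5 genes of particular assignment were named, with up to 3 genes of the smallest p per list and direction, and TUFM, TFAM, LRPPRC, DAP3, NRF1, GABPA, YY1 and MYC. Genes named only in the accounts of neighbouring pairs, MRPL3, MRPL41 and MRPS26 were chosen after their values were seen. Some genes that this rule names are not reported here. Tested on simulated data (10 tables, 12018 genes, of which 200 were changed), the step called 39.7% of genes changed by 0.25, 80.6% by 0.5 and 94.5% by 1, and 4.28% of calls were false. Far more genes, 55.2%, were called in the real data, and the simulated noise was normal and independent. The shares found in the real comparison may therefore differ from these. Summaries used Python 3.11.15 with pandas 2.3.3, and figures matplotlib 3.10.9.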

Additional observations from a re-analysis of the deposited data

How the results depend on the processing

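Results were recomputed with pseudocounts of 0.1 and 5, without a filter or with a mean of at least 5 TPM, after median scaling or quantile normalization, with variances without trend or robust, with the replicate number as a block, without each library, against DMSO replicate 3 alone, and with subunits by structure. None of the 38 ribosomal protein genes called in the full comparison changed sign. Their TGH and DMSO libraries did not overlap, so only median scaling or quantile normalization could have turned a sign. Under all 16 refits 9 of 12 higher and 14 of 26 lower genes kept their call. The median difference was -0.088 over all 76 genes, -0.13 over the large and -0.020 over the small subunit after median scaling, with 8 small-subunit genes lower, and -0.024, -0.055 and 0.052 after quantile normalization. Against DMSO replicate 3 alone it was -0.084 for the large and -0.0095 for the small subunit, 0.074 apart, and by structure -0.079 and -0.012, 0.066 apart.

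Leaving out 1 library at a time gave 11 to 13 genes higher and 19 to 28 lower, 17 to 23 lower and 5 to 7 higher in the large subunit, and 2 to 5 lower and 6 to 7 higher in the small subunit, with 5 lower without DMSO replicate 1. The median was -0.065 to -0.034 over all 76 genes, -0.10 to -0.089 over the large and 0.0026 to 0.032 over the small subunit, 0.091 to 0.13 apart. Over all genes 2858 to 3535 were higher and 2557 to 3175 lower. Same-numbered libraries did not deviate together in each pair (correlations 0.01, 0.05 and 0.23), so the numbers were not taken as pairs. With the replicate block 13 of the 76 genes were higher and 24 lower, against 12 and 26 without it. The share of all genes called with the block is not given here, so the blocked counts have no background beside them.

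Genes not called changed sign in places, for which the cause was not tested. Against DMSO replicate 3 alone MRPL12 had -0.060, MRPL41 -0.19, MRPS26 -0.076 and MRPS18B -0.021. MRPL41 passed the threshold there as lower (adjusted p = 0.030), while in the full comparison it was not called. After median scaling MRPS18B had -0.032 and LRPPRC -0.014, and after quantile normalization MRPL33 had 0.043. Without single libraries the range was -0.0027 to 0.17 for MRPL12, -0.054 to 0.24 for MRPL41, -0.031 to 0.15 for MRPS26, -0.071 to 0.049 for MRPL33, -0.033 to 0.024 for MRPS18B and -0.0068 to 0.033 for LRPPRC. MRPL12, MRPL41 and MRPS26 turned without DMSO replicate 1. TPM keeps no depth, which limits what can be said of low genes.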

Other observations

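The DMSO libraries varied more than the TGH libraries in these genes. The SD on the log2(TPM + 1) scale was larger in DMSO for 56 of 76 genes, with a median SD of 0.0366 in TGH and 0.0606 in DMSO libraries. The same count over all genes tested is not given here. Across 10713 of the genes tested, the difference between replicates 3 and 1 had an SD of 0.203 in DMSO and 0.106 in TGH. Across the 76 genes these were 0.136 and 0.0625, so wider controls were not particular to this family. Among the 76 genes the widest controls, found after the values were seen, were those of MRPL41, MRPS26 and MRPL12. MRPL41 had 90.9, 85.4 and 84.1 TPM in TGH replicates 1 to 3 and 65.9, 81.8 and 99.2 TPM in DMSO replicates 1 to 3, and MRPS26 had 83.1, 82.2 and 81.4 TPM with TGH and 67.5, 81.5 and 86.7 TPM with DMSO. For these 3 genes the TGH libraries agree closely and DMSO replicate 1 is the lowest library of all, so a comparison with 1 control or another gives a different sign.

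Their transcripts are rich in G and C, at 71.9%, 63.4% and 64.6% in GENCODE 29, where the median is 50.9% over the large and 49.0% over the small subunit. Across the 76 genes, the difference between DMSO replicates 3 and 1 had a Pearson r of 0.48 and a Spearman rho of 0.38 with GC content, and the difference between TGH replicates 3 and 1 had 0.02 and 0.07. Across 10713 genes with a GC value the figures were 0.19 and 0.25 for DMSO, and 0.19 and 0.27 for TGH. The difference between TGH and DMSO had 0.16 and 0.17 across the 76 genes. These are descriptions across genes that share the same libraries, and the part of GC content in the results above was not tested.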
